A study of Patiria miniata with 6 samples.

Results

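Homeobox genes other than those named Pm-Hox11/13b, Pm-Nkx2.1 and Pm-Nk1 were followed in bat star (Patiria miniata) embryos at the hatched blastula stage, after knockdown of the T-box transcription factor Pm-Tbr. The loci were chosen by name alone: every gene name given to a locus in the authors' deposited table had to begin with one of a set of homeobox family names (Nk, Dlx, Not, Pax, Otx, Rx, Alx, Lim1, Hnf6, Irx, Meis, Pbx, Pou, Lox and others). This gave 40 loci with 24 names, of 80165 loci counted in all. Another 8 loci match the same pattern but carry the 3 names left out. Those names were set aside with their results known and hold called loci, so the number of calls among the 40 is partly set by that choice. One group came from zygotes that received 600 µM of a morpholino antisense oligonucleotide (MASO), a synthetic strand that binds an RNA, against Pm-Tbr. The other received a standard control MASO, and both were kept in seawater at 15 °C until hatching. RNA came from pooled embryos, 3 libraries per group. The control MASO embryos were 30 hours post fertilization and the Pm-Tbr MASO embryos 36, so the effects of age and of the MASO cannot be told apart. Selection for a rhodamine tracer and healthy morphology removed arrested and aberrant embryos. The sources used here do not state whether translation or splicing is the target of the MASO.

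Homeobox genes encode transcription factors that bind DNA through a homeodomain, a compact helical fold whose recognition helix lies in the major groove. Their classes differ in what accompanies the homeodomain: a paired domain in Pax proteins, LIM domains in Lim1, a cut domain in Hnf6 (also called Onecut), a POU domain in Pou6, and an extended loop in the TALE class of Irx, Meis and Pbx. In echinoderm embryos such genes divide the blastula and gastrula into territories, with Otx acting in endomesoderm specification, and in sea urchins Hnf6 marking the ciliary band and IrxA the aboral ectoderm.

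The family label holds for most but not all of the loci. Among the names caught by the pattern, 4 names on 9 loci belong to other proteins: Pm-Paxillin (an adaptor of focal adhesions), Pm-Paxip1 (a BRCT-domain protein named for its binding to a Pax protein), Pm-Loxl2 (a lysyl oxidase that crosslinks matrix) and Pm-Loxhd1_3 (known from sensory hair cells of mammals). The other 31 loci carry 20 homeobox names. Where a name had several loci they are lettered a, b and c from the most to the fewest reads. Names exist only for loci with more than 2 CPM (counts scaled to the library total) in at least 3 libraries, so homeobox genes with fewer reads were not analysed here. Of the 40, 1 locus (Pm-Lox) passed that filter in the control libraries alone, so it had to be lower in the other group. Its values are a description, and counts of lower loci that hold it are not evidence from it. Counts in loci summed to between 17795136 and 28167566 per library, and the lowest count of any of the 40 loci in a library was 6. Genes marking endoderm and endomesoderm, mesoderm and ectoderm were read in all 6 libraries. Endoderm loci summed to 962 to 1074 CPM in controls and 441 to 651 CPM in Pm-Tbr MASO libraries, and ectoderm loci to 794 to 1030 and 252 to 433 CPM, without overlap. In controls Pm-FoxA alone gave 634 to 742 CPM of the endoderm sums and Pm-SoxC 467 to 526 CPM of the ectoderm sums. The groups did overlap at both Pm-ElavL loci and at the Pm-Bra locus with fewer reads. Mesoderm loci summed to 630 to 752 and 563 to 636 CPM, which overlapped, and their members differed in sign, with Pm-Gcm at -2.49 and the 4 Pm-Ets1/2 loci between 0.19 and 0.61 on the log2 scale. The egg transcripts Pm-Ebr1, Pm-Vtgn1 and Pm-Vtgn2 went the other way, from 2911 to 5124 CPM to 8659 to 13564 CPM. The part of these shifts in the homeobox values was not tested, and fewer cells of a type and less RNA per cell cannot be told apart in pooled embryos.

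Few homeobox loci passed a test. With libraries of the same replicate number treated as pairs, Pm-Pax2 and Pm-Hnf6 a fell in Pm-Tbr MASO embryos, and Pm-IrxB a and c rose. The same quasi-likelihood test without the pairing made none of these calls. In the quasi-likelihood test of edgeR with group as the only term, 0 of the 40 loci passed an adjusted p of 0.05, against 2.28% of all 44120 tested loci (1.36% higher and 0.922% lower), and the smallest adjusted p was 0.0510, for Pm-IrxB c. At an unadjusted p under 0.05 there were 3 higher and 9 lower, against 10.6% and 9.46% of all loci. DESeq2 called 3 higher and 3 lower (5.32% and 3.99% of all loci, 9.32% together) and the edgeR exact test 2 and 2 (4.58% and 3.06%, 7.65% together). With the block, DESeq2 called 4 and 8 (8.18% and 6.63%, 14.8% together). With same-numbered libraries as blocks, 4 loci were called higher and 4 lower, against 5.83% and 4.26% of all loci (10.1% together), and 3 and 3 of these had homeobox names, Pm-Lox being 1 of the lower ones. Among the 31 homeobox loci the CPM of the groups did not overlap for 11 lower and 2 higher loci, which was true of 14.7% and 12.1% of all tested loci. The 11 include Pm-Lox, whose direction the CPM filter set, and loci that share a name, such as Pm-Hnf6 a and c. All tested loci also hold loci with too few reads to have a name, so the shares are not taken over like loci. The 31 loci had a median log2 fold change of -0.35, with 21 negative and 10 positive, against a median of 0.01 and 49.4% negative over all tested loci. The median of all 40 loci was also -0.35, and without Pm-Tbr MASO replicate 2 it was -0.59.

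**Figure D1:**
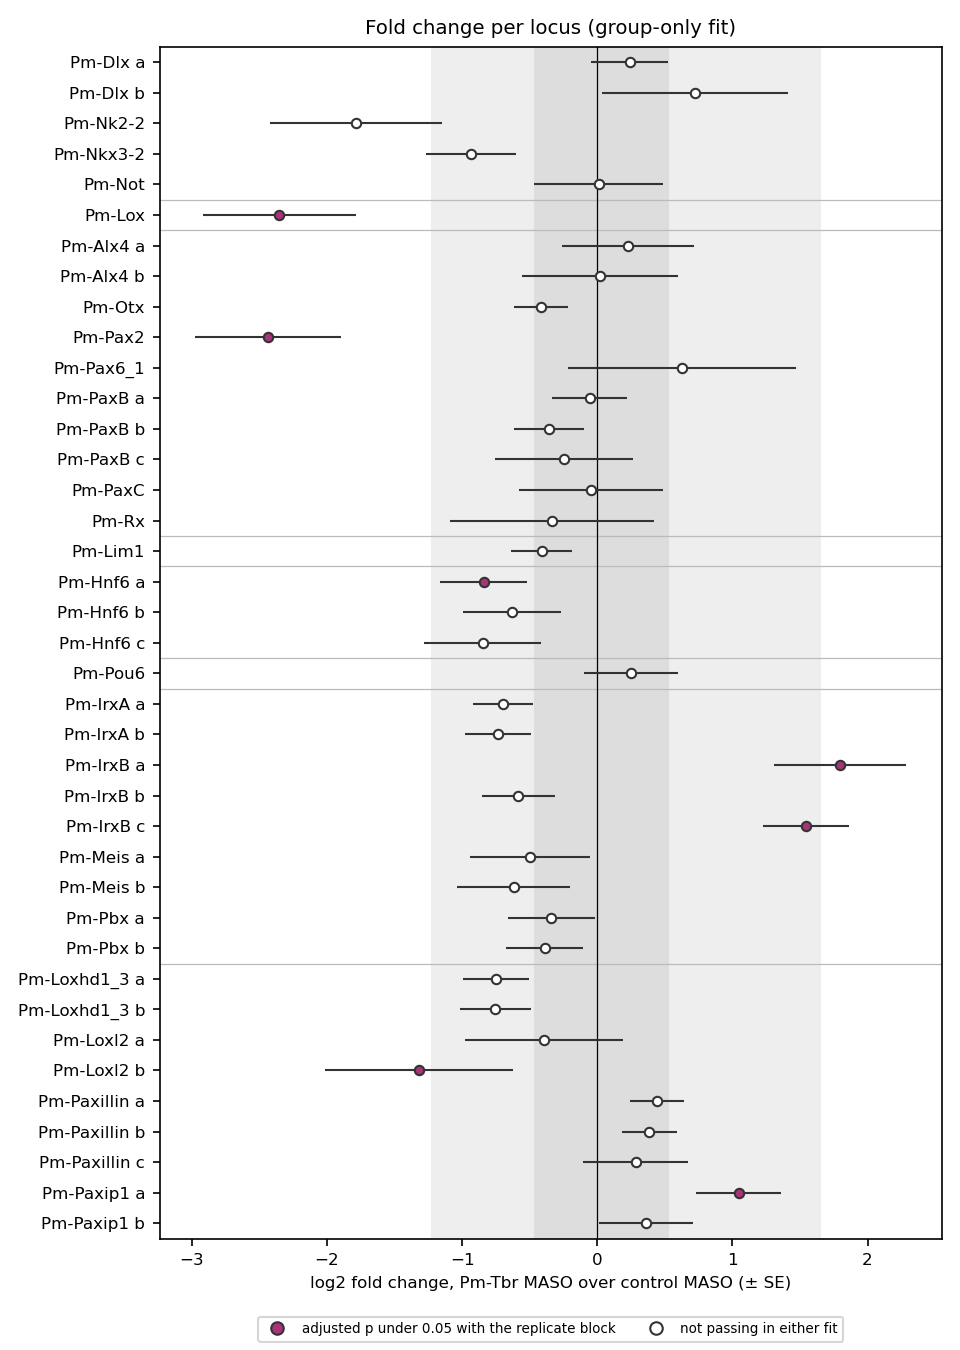
Log2 fold change (Pm-Tbr MASO over control MASO, horizontal axis) with its standard error for 39 of the 40 loci, ordered by homeobox class with the 9 non-homeobox loci last; filled points passed an adjusted p of 0.05 in the blocked fit, where the direction of Pm-Lox was set by the CPM filter. The dark and light grey bands hold the middle 25th to 75th and 5th to 95th percentiles of all 44120 tested loci, and Pm-Pax2, Pm-Lox, Pm-Nk2-2 and Pm-Loxl2 b lie left of both bands while Pm-IrxB a lies right of them.

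Among the paired and paired-like genes, Pm-Pax2 fell with the replicate block, while Pm-Otx, Pm-Rx, Pm-Pax6_1, Pm-PaxC and the Pm-PaxB and Pm-Alx4 loci did not pass in either fit. Pm-Pax2 encodes a paired-domain factor needed for kidney and midbrain-hindbrain development in vertebrates. Its locus, on scaffold 748 from 47124 to 89005, had 25.1, 26.9 and 6.54 CPM in control MASO replicates 1 to 3 and 3.65, 4.36 and 2.44 CPM in Pm-Tbr MASO replicates 1 to 3. The ranges of the groups stood apart, although control MASO replicate 3 lay far below the other controls. The log2 fold change was -2.43 ± 0.54 (SE; 5.41-fold lower), with an adjusted p of 0.0594 without the block and 0.0098 with it. Without control MASO replicate 3 the test without the block also passed (-2.85, adjusted p = 0.0385), and without the replicate 1 pair the blocked test missed (adjusted p = 0.0559). Of all 27 alternative settings, with and without the block, 12 called the locus.

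Pm-Otx, the orthodenticle relative, on scaffold 658 from 26512 to 66525, was the paired-like locus with most reads. It had 797, 731 and 891 CPM in the controls and 548, 524 and 677 CPM in the Pm-Tbr MASO libraries. Control and Pm-Tbr MASO libraries did not overlap and the ratios of the 3 pairs were close to each other, at -0.54, -0.48 and -0.40 on the log2 scale. The fold change, -0.42 ± 0.20, did not pass in either fit (adjusted p = 0.286, and 0.199 with the block).

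Pm-Rx, a retina and anterior neural gene in vertebrates, had 37.7, 29.2 and 69.3 CPM in the controls and 5.22, 26.3 and 73.2 CPM in the Pm-Tbr MASO libraries. Pm-Tbr MASO replicate 1 stood far below the rest, while in replicates 2 and 3 the groups were alike, so the groups overlapped and the estimate of -0.34 ± 0.76 did not pass (adjusted p = 0.849). A locus of the neighbouring homeobox gene Pm-Hbn lies 9227 bases away on the opposite strand of scaffold 8. It had 10.4, 11.4 and 34.6 CPM in the controls and 4.55, 6.06 and 17.9 CPM in the Pm-Tbr MASO libraries, with replicate 3 highest in both groups for both genes. That Pm-Hbn locus was called lower with the block (adjusted p = 0.0328) and not without it (adjusted p = 0.450), and Pm-Rx was called in neither.

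Pm-Pax6_1, named for the eye regulator Pax6, had 13.1, 9.33 and 1.84 CPM in the controls and 5.33, 26.8 and 4.05 CPM in the Pm-Tbr MASO libraries. Its pairs went in different directions, with log2 ratios of -1.22, 1.48 and 0.96, and it missed the threshold (log2 fold change 0.63 ± 0.84, adjusted p = 0.735). Pm-PaxB a had 109, 125 and 187 CPM in the controls and 99.2, 125 and 166 CPM after Pm-Tbr MASO. The groups were close within each replicate number (log2 fold change -0.06 ± 0.28). The remaining paired loci, Pm-PaxB b and c, Pm-PaxC and Pm-Alx4 a and b, overlapped between groups and had log2 fold changes of -0.35, -0.25, -0.05, 0.23 and 0.02. Alx4 is a craniofacial regulator in mammals, and its relative Alx1 specifies the skeletogenic cells of sea urchins.

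The only ParaHox locus among the 31 was Pm-Lox, which had a name only because of its level in the control libraries, so its lower level in the other group is described and not tested. Lox, known as Xlox or Pdx1 in other animals, is a gut patterning gene that in many animals stands beside Cdx in the ParaHox cluster. The locus lies on scaffold 2936 from 27136 to 64608. It had 2.47, 4.33 and 2.66 CPM in the controls and 0.337, 1.05 and 0.333 CPM after Pm-Tbr MASO, from 64, 117 and 65 reads against 6, 32 and 6. The groups did not overlap, and replicate 2 was highest in both. The log2 fold change was -2.35 ± 0.57 (5.11-fold lower).

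The nearest named locus on the same scaffold is the ParaHox neighbour Pm-Cdxl, 11627 bases away. Pm-Cdxl had 62.0, 64.0 and 55.0 CPM in the controls and 74.3, 24.4 and 24.2 CPM after Pm-Tbr MASO. Pm-Tbr MASO replicate 1 was above the controls and those of replicates 2 and 3 below them, so Pm-Cdxl missed the threshold (log2 fold change -0.50 ± 0.44, adjusted p = 0.584). Whether the changes of Pm-Lox and Pm-Cdxl differ was not tested.

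None of the 5 loci of NK and other ANTP-class genes passed in edgeR, with or without the block. Pm-Nk2-2, a relative of the ventral neural tube gene Nkx2-2 of vertebrates, on scaffold 858 from 28985 to 81445, had 22.4, 11.6 and 8.54 CPM in the controls and 1.29, 7.6 and 2.94 CPM after Pm-Tbr MASO. The ranges of the groups stood apart, but the size of the difference varied widely, from -3.68 on the log2 scale in pair 1 to -0.58 in pair 2. Its log2 fold change was -1.79 ± 0.63 (adjusted p = 0.169, and 0.0911 with the block), and DESeq2 placed it past the threshold (adjusted p = 0.0369). Pm-Nkx3-2, the bagpipe relative, had 3.74, 4.26 and 5.97 CPM against 2.36, 2.56 and 2.11 CPM. Its groups did not overlap either, and it missed the threshold (log2 fold change -0.93 ± 0.33, adjusted p = 0.170).

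Pm-Dlx, the distal-less relative that acts in limbs and forebrain of vertebrates, had 147, 124 and 171 CPM in the controls and 158, 113 and 234 CPM after Pm-Tbr MASO at locus a. The groups overlapped, replicate 3 was highest in both, and the estimate of 0.24 ± 0.29 changed sign to -0.0603 without Pm-Tbr MASO replicate 3. Pm-Dlx b, which shares the gene model, was also highest in replicate 3 of both groups, with 6.01, 9.70 and 22.4 CPM against 10.3, 8.13 and 42.4 CPM. Pm-Not, whose sea urchin relative acts in the oral ectoderm, had 3.28, 5.03 and 4.0 CPM against 2.36, 6.98 and 2.55 CPM. Its groups overlapped and the log2 fold change was 0.01 ± 0.47.

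Among the LIM, cut and POU genes only Pm-Hnf6 a passed, and only with the block. It lies on scaffold 2508 from 11263 to 71536 and had 37.0, 50.4 and 62.3 CPM in the controls and 16.2, 33.1 and 31.5 CPM after Pm-Tbr MASO. Control and Pm-Tbr MASO libraries did not overlap. The log2 fold change was -0.84 ± 0.32 (adjusted p = 0.197) and with the block -0.88 ± 0.21 (adjusted p = 0.0410), a call that was kept without the replicate 2 pair (adjusted p = 0.0175) and ended without pair 1 or pair 3 (adjusted p = 0.171 and 0.164). Pm-Hnf6 b, on scaffold 5927, had 20.6, 22 and 32.6 CPM against 8.42, 21.4 and 17 CPM. Its groups overlapped slightly and it did not pass (-0.63 ± 0.36). Pm-Hnf6 c starts 63 bases past the end of locus a, shares its gene model, and had nearly the same estimate (-0.85 ± 0.43, adjusted p = 0.321).

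Pm-Lim1, a LIM-homeobox gene active in the gastrula organizer of vertebrates, had 18.6, 19.0 and 24.8 CPM in the controls and 15.4, 14.0 and 15.8 CPM after Pm-Tbr MASO. The groups did not overlap, yet the difference of -0.41 ± 0.23 did not pass (adjusted p = 0.362). Pm-Pou6, the POU gene, had 5.39, 10.3 and 6.37 CPM against 7.41, 11.0 and 6.93 CPM. Each Pm-Tbr MASO library was slightly above its control, replicate 2 was highest in both groups, and the estimate of 0.25 ± 0.35 did not pass (adjusted p = 0.741).

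Of the 9 TALE-class loci, 2 of the 3 Pm-IrxB loci rose with the replicate block and 7 did not pass, among them both Pm-IrxA loci, which had negative estimates. Irx genes encode Iroquois factors. Pm-IrxB a, on the plus strand of scaffold 3826 from 4204 to 13127, had 14.8, 24.0 and 6.86 CPM in the controls and 50.9, 72.3 and 30.5 CPM after Pm-Tbr MASO. The ranges of the groups stood apart, and replicate 2 was highest and replicate 3 lowest in both. The log2 fold change was 1.8 ± 0.49 (3.48-fold higher; adjusted p = 0.0963), and 1.89 ± 0.21 with the block (adjusted p = 0.0057), a call that was kept without the pair of replicate 1, 2 or 3 (adjusted p = 0.0308, 0.000218 and 0.0269).

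Pm-IrxB c, on scaffold 12832 from 9 to 5459, had 4.86, 6.85 and 4.0 CPM in the controls and 18.6, 13.4 and 12.1 CPM after Pm-Tbr MASO. Control and Pm-Tbr MASO libraries did not overlap. The log2 fold change was 1.54 ± 0.32 (2.92-fold higher; adjusted p = 0.0510, and 0.0170 with the block). The blocked call ended without pair 1 or pair 3 (adjusted p = 0.101 and 0.0784).

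Pm-IrxB b starts 215 bases past the end of locus a, from 13343 to 14775, has no strand in the authors' table and shares the gene model of locus a. It went the other way, with 17.6, 14.4 and 10.7 CPM in the controls and 8.70, 8.95 and 9.87 CPM after Pm-Tbr MASO. These groups did not overlap, although the estimate of -0.59 ± 0.27 did not pass (adjusted p = 0.275, and 0.194 with the block). An unnamed minus-strand locus begins 66 bases further on and had an estimate of -0.53 ± 0.25 (adjusted p = 0.281). Summing all 3 Pm-IrxB loci gave an estimate of 1.15 ± 0.34 (adjusted p = 0.115, and 0.0131 with the block). The difference between loci a and b was not tested. Pm-IrxB a also overlaps the minus-strand locus Pm-C7orf30L, a mitochondrial ribosome factor name, and a locus of that name is the nearest to Pm-IrxB c as well. The estimates at those neighbours were 0.75 ± 0.43 and 0.86 ± 0.29 (adjusted p = 0.372 and 0.150, and 0.0418 with the block for the second). Reads of overlapping loci on opposite strands cannot be told apart where counting ignores strand, and the sources used here do not state the strand setting.

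Pm-IrxA a, on scaffold 875 from 41325 to 50523, had 238, 338 and 332 CPM in the controls and 164, 208 and 168 CPM after Pm-Tbr MASO. Pm-IrxA b, on scaffold 265, had 21.2, 16.9 and 17 CPM against 10.8, 12 and 9.10 CPM. At both loci the groups did not overlap. The log2 fold changes, -0.70 ± 0.22 and -0.74 ± 0.24, were nearly the same and did not pass in either fit (adjusted p = 0.135 and 0.149, and 0.0675 and 0.0746 with the block). Meis and Pbx proteins are DNA-binding cofactors of Hox proteins. Pm-Pbx a had 9.90, 13.2 and 11.8 CPM against 7.86, 12.6 and 6.16 CPM, and Pm-Meis a had 3.93, 5.0 and 6.21 CPM against 1.85, 5.64 and 2.77 CPM. The groups overlapped at all 4 cofactor loci, whose estimates of -0.34, -0.39, -0.50 and -0.62 for Pm-Pbx a and b and Pm-Meis a and b did not pass.

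**Figure D2:**
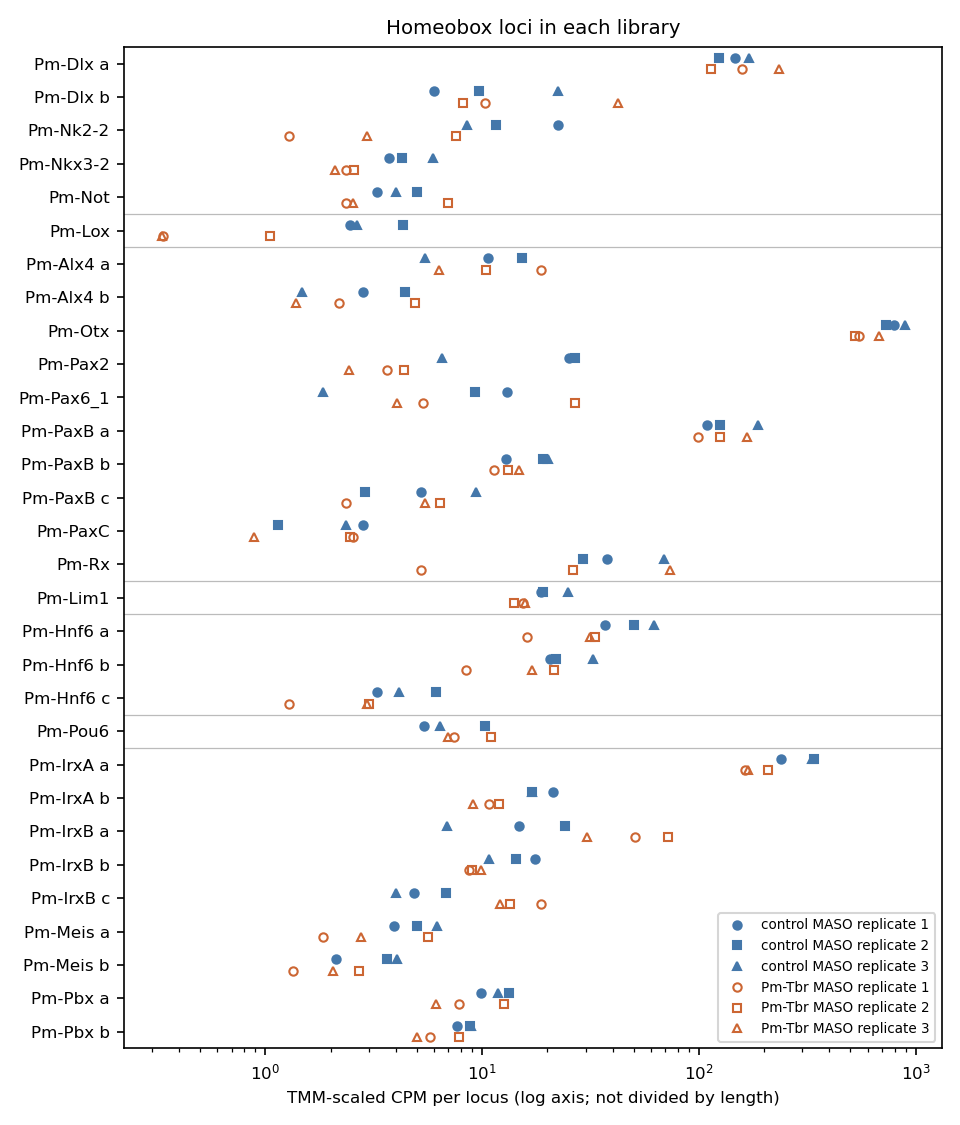
TMM-scaled CPM of 30 of the 31 homeobox loci in each library (log axis), with control MASO libraries as filled blue symbols and Pm-Tbr MASO libraries as open orange symbols, and 1 symbol shape per replicate number. CPM is not divided by length, so positions are compared within a row. The symbols separate completely for Pm-IrxB a and c (orange to the right) and for 11 rows with orange to the left, such as Pm-Pax2 and Pm-IrxA a. The 11 include Pm-Lox, whose direction was set by the CPM filter.

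The non-homeobox names varied in direction. Pm-Paxip1 a rose with the block, from 6.17, 5.66 and 4.17 CPM to 12.7, 11.4 and 7.82 CPM (log2 fold change 1.05 ± 0.31, adjusted p = 0.117, and 0.0328 with the block), whereas Pm-Paxip1 b, at 0.36 ± 0.35, did not pass. The groups did not overlap at locus a and overlapped at locus b. Pm-Loxl2 b had 2.97, 4.33 and 1.23 CPM in the controls and 0.898, 2.0 and 0.333 CPM after Pm-Tbr MASO, and was called lower only with the block (-1.32 ± 0.69, and -1.46 ± 0.36 with the block, adjusted p = 0.0465). The groups overlapped there, and Pm-Loxl2 a, at -0.39 ± 0.59, did not pass. Both Pm-Loxhd1_3 loci had groups without overlap and an estimate of -0.75 (adjusted p = 0.141 and 0.159). The 3 Pm-Paxillin loci, at 0.44, 0.39 and 0.28, did not pass.

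Loci that share a name can be copies, alleles or fragments of 1 gene, and the files do not say which. Reads that aligned to more than 1 place were left out, so reads shared by like copies are missing from their counts. For 11 names, 7 of them homeobox names, loci lay on 2 scaffolds, and only the locus with most reads on each scaffold was compared. That left out Pm-IrxB b (-0.59), opposite in sign to Pm-IrxB c (1.54) on the other scaffold. The estimates compared had the same sign for all 11 names. Their median absolute difference was 0.21 on the log2 scale and the largest among the homeobox names was 0.30, for Pm-PaxB. The exceptions with larger differences were the non-homeobox names Pm-Loxl2 and Pm-Paxip1, at 0.93 and 0.69. Of 5 gene models split into 2 loci on 1 scaffold, Pm-IrxB alone had estimates of opposite sign. When counts were summed by name before the test, 0 of the 24 names passed without the block (2.13% of all 38067 features did, 1.23% higher and 0.896% lower), and with it 2 names passed as higher and 2 as lower, among them Pm-Pax2 and Pm-IrxB (adjusted p = 0.0107 and 0.0131) and, with its direction set by the filter, Pm-Lox, against 9.48% of all features (5.51% higher and 3.97% lower), while Pm-Hnf6 missed (adjusted p = 0.0520).

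**Figure D3:**
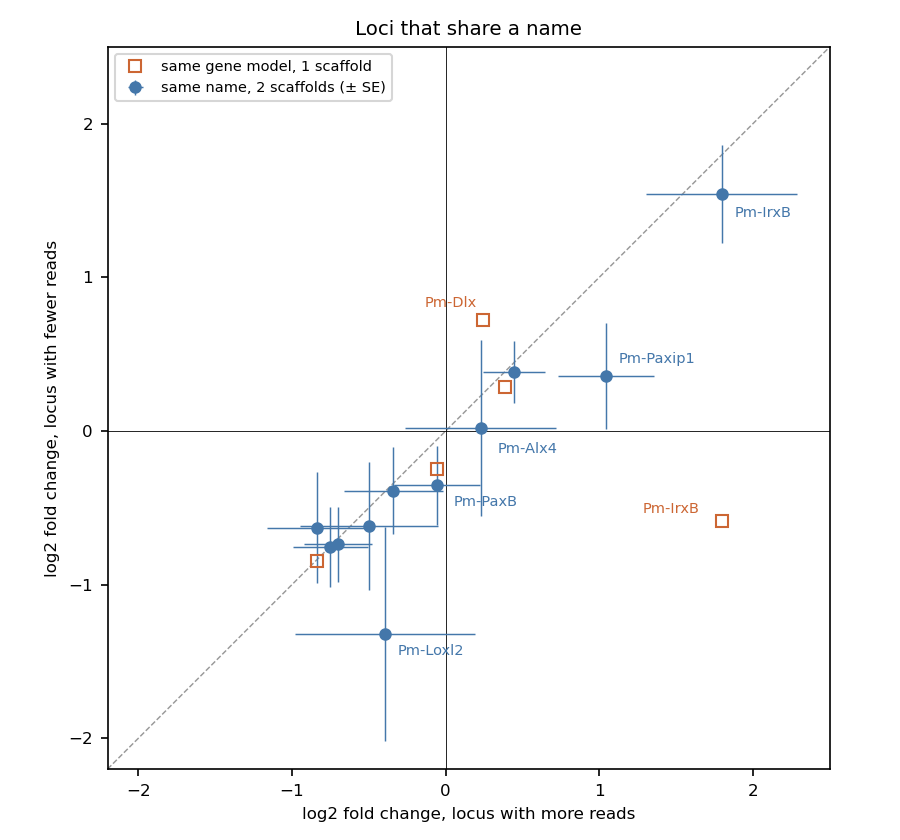
Log2 fold change of the locus with more reads (horizontal) against that of the locus with fewer reads (vertical). Circles (bars are standard errors) are the 11 names found on 2 scaffolds, by the locus with most reads on each. Squares are the 5 gene models split into 2 loci, and the dashed line marks equality. The circles lie to the lower left or upper right of the origin, and the Pm-IrxB square, at 1.8 and -0.59, lies far from the line.

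Several homeobox loci had the same replicate number highest in both groups, but the share of loci that did was not counted. The median coefficient of variation within a group was 29.3% in controls and 37.6% in Pm-Tbr MASO libraries for the 31 loci, against 30.9% and 31.6% for all tested loci. Deviations from the group mean over the 40 loci correlated at 0.21, 0.42 and 0.73 between libraries numbered 1, 2 and 3, and at -0.56 to 0.35 between unlike numbers. The 0.21 of number 1 was below the 0.35 between control MASO replicate 1 and Pm-Tbr MASO replicate 2. Pairing by number 1 was thus not seen among these loci. The blocked calls of Pm-Pax2, Pm-Hnf6 a, Pm-IrxB c, Pm-Paxip1 a and Pm-Loxl2 b all ended when pair 1 was left out. Those of Pm-Hnf6 a, Pm-IrxB c, Pm-Paxip1 a and Pm-Loxl2 b also ended without pair 3, and that of Pm-IrxB a was kept without either. Replicate 3 was highest in both groups for loci such as Pm-Dlx a and b, Pm-PaxB a, Pm-Rx and Pm-Otx. Replicate 2 was highest in both for loci such as Pm-Lox, Pm-IrxB a, Pm-Pou6 and Pm-Pax2. These are examples and not a full list. Across pairs, 16 of the 31 loci were lower in all 3 and 4 were higher in all 3, which held for 28.0% and 23.9% of all tested loci. The 16 include Pm-Lox, and all tested loci also hold loci with too few reads to have a name. The median log2 ratio of the 31 loci was -0.50, -0.15 and -0.56 in pairs 1, 2 and 3.

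**Figure D4:**
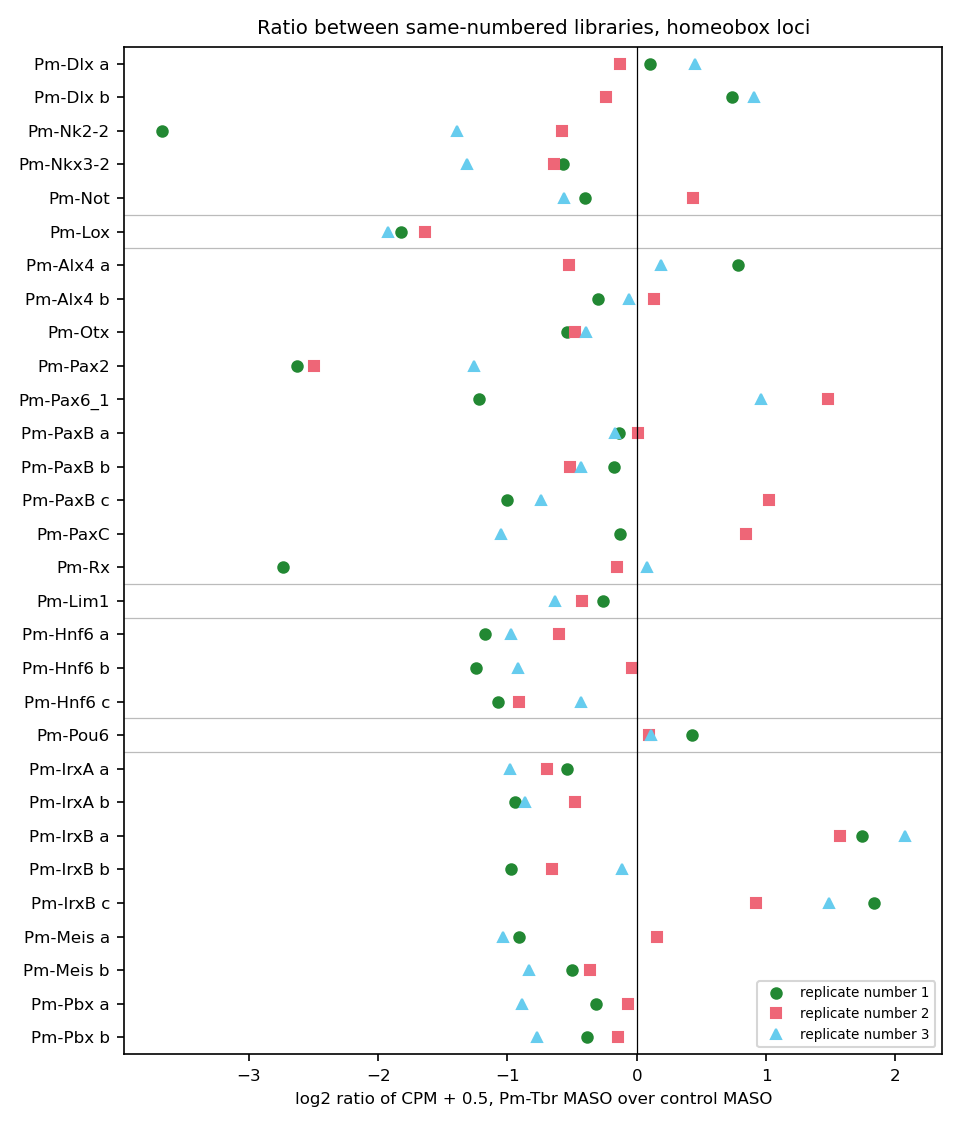
Log2 ratio of CPM plus 0.5 between the Pm-Tbr MASO and control MASO libraries of the same replicate number (horizontal axis) for 30 of the 31 homeobox loci, with 1 symbol per replicate number. The 3 symbols of Pm-Otx lie close together, whereas those of Pm-Nk2-2, Pm-Rx and Pm-Pax6_1 are spread widely. Those of Pm-Lox (-1.83, -1.64 and -1.92) are also close. The added 0.5 is large beside its Pm-Tbr MASO values (0.337, 1.05 and 0.333 CPM) and makes its ratios smaller, so their closeness is not a measure of agreement. The direction of Pm-Lox was set by the CPM filter.

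The authors' deposited table had a false discovery rate under 0.05 for 9.27% of 27630 loci (5.50% higher and 3.77% lower), and 4 of the 40 loci were among them, 2 higher and 2 lower. The authors' deposited table gave log2 fold changes of 1.55 for Pm-IrxB c, 1.85 for Pm-IrxB a, -2.27 for Pm-Pax2 and -2.30 for Pm-Lox, with false discovery rates of 0.0182, 0.0406 and 0.0208 for the first 3. The direction of Pm-Lox in the authors' deposited table was set by the CPM filter. Pm-Hnf6 a missed in the authors' deposited table, at a false discovery rate of 0.0747.

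Further homeobox genes outside the set were listed by name, with earlier results known. They numbered 28 loci, 8 of them with the 3 names left out of the set. Another 11 loci with unclear names, such as Pm-Dr and Pm-Dbxd7, were not counted among them. Without the block 10 of the 28 were called lower and 0 higher, against 0.922% and 1.36% of all tested loci. Of the 10, 5 had names other than those 3: Pm-Eve, Pm-Gsc (goosecoid), Pm-Msx, 1 locus of Pm-Hbn and Pm-Hmx. Of the 28, 1 locus (Pm-Msx) passed the CPM filter in the control libraries alone, so it could only be lower and its call is not evidence of a direction. Pm-Hmx, a relative of vertebrate Hmx genes of the sense organs and nervous system, had 94.0, 64.8 and 59.7 CPM in the controls and 4.88, 9.31 and 13.9 CPM after Pm-Tbr MASO. These groups lay far apart, and the log2 fold change was -2.91 ± 0.40 (adjusted p = 0.0243). With the block 16 of the 28 were called lower and 4 higher, against 4.26% and 5.83% of all tested loci. Pm-Prox1 and 3 Pm-Nk1 loci were the higher ones. The median of the 28 loci was -0.94, against -0.35 for the 31, and since both lists were chosen with results known, the difference between them was not tested.

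**Figure D5:**
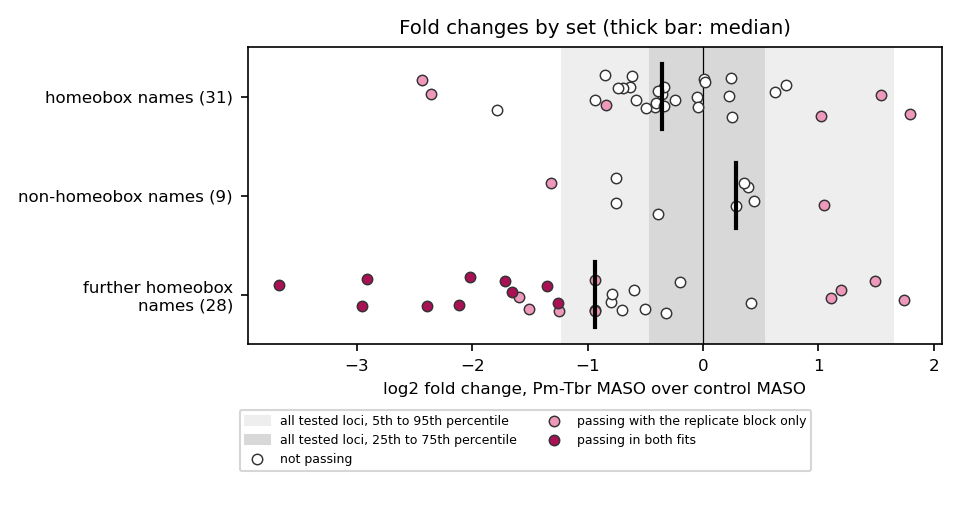
Log2 fold change (horizontal axis) of the 31 homeobox loci, the 9 non-homeobox loci caught by the pattern and 28 loci of further homeobox names, with the vertical spread added for visibility and the thick bar at the median (-0.35, 0.28 and -0.94). Grey bands hold percentiles of all 44120 tested loci, and dark red points, which passed in both fits, occur only in the bottom row.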

How the data were processed

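RNA from 3 control MASO and 3 Pm-Tbr MASO libraries was sequenced on an Illumina HiSeq. Per the submitters' processing notes HTSeq 0.6.1p1 and edgeR 3.10.5 were used beside TopHat2 2.0.12, Cufflinks 2.2.1, SAMtools and CASAVA 1.8. The sources used here state neither a genome build nor the strand setting. The authors deposited raw counts per locus for each library and a table of their own comparison, which holds p-values, a test score, log2 CPM and log2 fold changes. Summary lines without a locus, 49.0 to 50.6% of counted lines, were left out. Most of them were alignments to more than 1 place, at 43.4 to 45.2% of counted lines. No check of the labels against the targeted transcript was made, since Pm-Tbr is not analysed here.

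Counts were tested with the quasi-likelihood test of edgeR 4.0.16 in R 4.3.3, with TMM scaling, filterByExpr and group as the only term. Benjamini-Hochberg adjustment ran over 44120 loci, with a threshold of 0.05. A check on simulated data drew libraries without a replicate effect, so it cannot test the blocked fit on paired libraries. DESeq2 1.42.0, the exact test, other scalings and filters, libraries left out and the replicate number as a block were alternatives. The members and gene lists were chosen with earlier results of these data known. No label says that a number marks a shared culture. Deviations from the group mean correlated at 0.53, 0.23 and 0.56 between same-numbered libraries and at -0.47 to -0.05 between others, so blocked values are given beside results whose call they change. Values in every library are given for loci called in either fit and, per class, for the locus with the highest mean CPM and the one with the largest fold change, with 1 locus not reported here; other loci shown were chosen after their values were seen. No replicates were duplicates (chi-square per degree of freedom 39.9 to 56.9). No source names separate spawnings for the libraries. The spread behind each p-value is therefore that between these samples and may be technical.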

Additional observations from a re-analysis of the deposited data

How the results depend on the processing

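Over all tested loci 1008 were called, against 4110 with DESeq2, 3374 with the exact test, 4455 with the replicate block, 6534 with the block in DESeq2, 4489 with the block and RLE scaling, and 3608 with the block and counts summed by name. Leaving out control MASO replicate 1, 2 or 3 gave 209, 0 and 153 (0, 0 and 100 with loci filtered again; in edgeR 8561 loci had an unadjusted p under 0.05 beside the 0 without replicate 1, and 6643 and 6886 beside those without replicate 2), and Pm-Tbr MASO replicate 1, 2 or 3 gave 14, 139 and 479 (13, 118 and 418). With the block, leaving out pair 1, 2 or 3 gave 852, 5722 and 1601. Among the 40 loci, 0 were called higher, against 3, 2, 4, 4, 4 and 2 under those same 6 alternatives, 1 with total-count scaling (Pm-IrxB c, adjusted p = 0.0495), 1 with the CPM filter, 3 with the block and no non-homeobox names, and 0 to 4 with libraries left out. Called lower were 0, against 3, 2, 4, 8, 4 and 2 under the 6 alternatives, 1 with all loci that had a count (Pm-Pax2, adjusted p = 0.0345), 1 with the CPM filter (Pm-Pax2, adjusted p = 0.0465), 3 with the block and no non-homeobox names, and 0 to 7 with libraries left out. Over all loci 5.32% were called higher and 3.99% lower with DESeq2, and 4.58% and 3.06% with the exact test. With the block these shares were 5.83% and 4.26%, and with the block in DESeq2 8.18% and 6.63%. Counts summed by name with the block gave 5.51% and 3.97% of features. Shares by direction under the other alternatives are not given here, so those counts cannot be read against all loci. The median of the 40 loci ranged from -0.59 to -0.26 with libraries left out. Pm-Dlx a turned to -0.0603 and, with loci filtered again, -0.0672 without Pm-Tbr MASO replicate 3. Of 405 alternative values for named loci, 345 kept direction and side of the threshold, 58 newly passed it and 2 turned direction; the cause was not tested. The blocked calls of Pm-Paxip1 a and Pm-Loxl2 b ended without pair 1 or pair 3 (adjusted p = 0.163 and 0.119, and 0.193 and 0.153). Block alternatives beyond the plain block were chosen after seeing the data. With 3 libraries per group, loci with few reads such as Pm-Lox carry the widest counting error.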

Other observations

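A locus with the mixed name of Pm-AcheL_2 and Pm-Hox5, on scaffold 3598 from 69 to 16784, was outside the set because only 1 of its names is a homeobox name. It had 5.36, 1.55 and 2.66 CPM in the controls and 3.87, 7.01 and 2.94 CPM after Pm-Tbr MASO. The groups overlapped and it missed the threshold (log2 fold change 0.59 ± 0.53, adjusted p = 0.592, and 0.450 with the replicate block). Reads from the cholinesterase-like part and the Hox part of this locus cannot be separated in a count per locus.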
